A study of Mus musculus with 17 samples.

Results

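The genes examined here were the 49 protein-coding genes of GENCODE vM21 (mm10) on chromosomes 1 to 19 whose symbols begin with Psma, Psmb, Psmc, Psmd, Psme, Psmf or Psmg and a number, out of 20807 protein-coding genes on those chromosomes. The rule that selects them uses the symbol and no measured value. Of the 49, 31 encode the constitutive subunits of the proteasome (7 alpha and 7 beta subunits of the core particle, 6 ATPases and 11 other subunits of the regulatory particle), 5 encode core subunits restricted to certain tissues, 6 encode activators or an inhibitor, and 6 encode assembly chaperones. The last, Psmc3ip, carries a proteasome symbol but encodes a factor of meiotic recombination, and its values are given apart.

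The proteasome is the protease that breaks down proteins tagged with ubiquitin. Its barrel-shaped core particle cuts polypeptides inside a closed chamber. Its regulatory particle recognises ubiquitin chains, removes them, and uses a ring of ATPases to unfold the substrate and feed it into the core. In the lens, epithelial cells divide and give rise to fiber cells, which fill with crystallins and later lose their nuclei and organelles, and the ubiquitin-proteasome pathway is active in both compartments. H3.3 is a histone H3 variant that is placed into chromatin outside DNA replication, commonly over transcribed genes and regulatory regions.

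Genome-wide H3.3 occupancy had been measured by ChIP-seq in lenses of newborn wild-type CD1 mice, with no other allele and no treatment, microdissected into epithelium (2 libraries) and fiber (2 libraries). The sample titles give postnatal day 1 and the protocol postnatal day 0.5. According to the labels, 150 lenses were pooled per sample, where the study's methods give another number of lenses, and the libraries are biological replicates, so each library averages many animals. A bulk library cannot tell apart more cells carrying an island from more H3.3 per cell. What the libraries hold is a list of islands, the stretches where H3.3 reads were enriched, with the number of reads in each. The 2 epithelium lists held 10389 and 14434 islands with 1331369 and 1430373 reads, and the 2 fiber lists 27059 and 35940 islands with 5041885 and 5359085 reads, replicate 1 first. Series of 4 values are given throughout in the order epithelium replicate 1, epithelium replicate 2, fiber replicate 1, fiber replicate 2. The sequencing depth of the libraries is unknown, so that every comparison below has to be read against this difference in island number, and the values of all protein-coding genes stand beside those of the proteasome genes for that reason.

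The labels were first compared with marker genes of the lens and of neighbouring tissues. All 6 fiber markers had an island in their gene window (the gene body with 1 kb on each side) in both fiber libraries and 3 of 6 had one in each epithelium library. Bfsp1, Lim2 and Crygs, which encode a beaded filament protein, a fiber membrane protein and a crystallin, were covered from end to end in both fiber libraries and had no island in epithelium. The 4 epithelium markers (Foxe3, Cdh1, Pdgfra and Pax6) had islands in both fiber libraries, and 3 and 4 of them in epithelium replicates 1 and 2. Island calls at these genes thus did not set epithelium apart from fiber. Cdh1 was covered by 16.5%, 26.1%, 41.9% and 50.1%, Pdgfra by 15.9%, 13.8%, 65.4% and 74.5%, and Pax6 by 77.0%, 82.9%, 94.7% and 86.2%. Although epithelium markers, Cdh1, Pdgfra and Pax6 were therefore covered more in both fiber libraries than in either epithelium library. Foxe3, a transcription factor gene of the lens epithelium, had no island in epithelium replicate 1 and was covered completely in the other 3 libraries. Of the markers of other cells, 1 of 4 blood and macrophage genes (Csf1r) had islands, in every library but epithelium replicate 1, and the globin genes Hba-a1 and Hbb-bs had none. Endothelium markers had islands at 1, 2, 2 and 2 of 3 genes, retina markers at 3, 2, 3 and 2 of 4, and pigment cell markers at 2 of 4 in fiber replicate 2 alone. The part of other cells in the values below was not tested.

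Proteasome genes carried H3.3 islands in most cases in fiber and in a minority of cases in epithelium. An island overlapped the gene window of 14 and 18 of the 49 genes in epithelium (28.6% and 36.7% for replicates 1 and 2), and of 40 and 43 in fiber (81.6% and 87.8%). Among all protein-coding genes, the corresponding shares were 28.6%, 33.5%, 54.5% and 60.5%. Thus the proteasome genes lay close to all genes in epithelium, with 32.7% ± 5.77 (SD, n = 2) against 31.0% ± 3.46, and above them in fiber, with 84.7% ± 4.33 against 57.5% ± 4.30. The difference between compartments was 52.0 percentage points for the proteasome genes and 26.5 for all genes, and for the proteasome genes the lowest fiber library lay above the highest epithelium library by far more than the replicates of either compartment differed. No p-value is given for a list. With 2 libraries against 2, the exact two-sided permutation test of a single gene has 6 splits and cannot give a p below 0.33, so no gene could pass a threshold of 0.05.

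**Figure D1:**
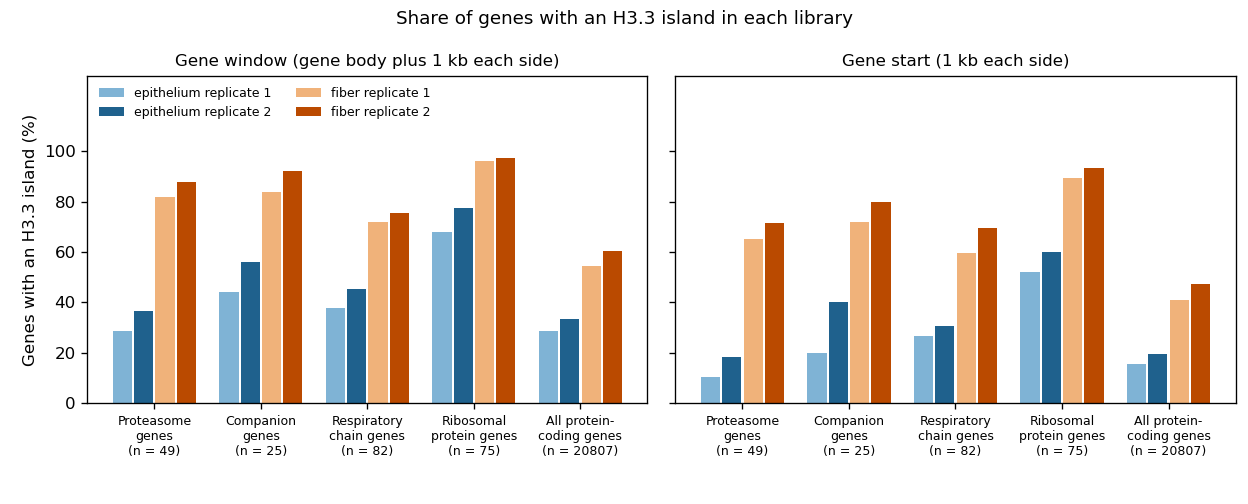
Share of genes (%, bars from 0) with an H3.3 island in each of the 4 libraries, in the gene window (left) and within 1 kb of the gene start (right), for proteasome genes, companion genes of the pathway, respiratory chain genes, ribosomal protein genes and all protein-coding genes. For proteasome genes the bars rise from 28.6% and 36.7% in epithelium to 81.6% and 87.8% in fiber, while those of all genes rise from 28.6% and 33.5% to 54.5% and 60.5%.

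The size of this difference depended on how many islands were taken from each library. When 10389 islands, the number in the smallest list, were kept in every library, those with the most reads per kb gave 28.6% of proteasome genes in epithelium and 41.8% in fiber, a difference of 13.3 points, where all genes gave 28.1% and 33.4%. Keeping instead the islands with the most reads gave 30.6% and 53.1%, a difference of 22.4 points, where all genes gave 28.1% and 33.3%. The direction was the same and the difference was smaller, for the proteasome genes as for all genes.

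The contrast was also present at the gene start, where the width examined does not depend on the length of the gene. Within 1 kb of the annotated start, islands were found at 5 and 9 of the 49 genes in epithelium (10.2% and 18.4%) and at 32 and 35 in fiber (65.3% and 71.4%). All protein-coding genes gave 15.7%, 19.4%, 41.0% and 47.4%. In epithelium the proteasome genes were therefore slightly below all genes at the start, and in fiber they were above. Of the 49, 26 had a start island in both fiber libraries (53.1%, against 37.0% of all genes) and 12 had one in at least 1 epithelium library (24.5%, against 25.2%). A start island in both fiber libraries and in neither epithelium library was found at 15 (30.6%, against 16.5%). With equal numbers of islands the difference at the start was 16.3 points for the densest islands and 13.3 points for those with the most reads, in place of 54.1, where all genes gave 5.32 and 5.41 points in place of 26.6.

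The length covered by islands was compared next. The median gene length was 11763 bp for the proteasome genes and 17629 bp for all genes, and a covered share depends on the length of the window. Over the 49 gene windows, islands covered 40835 and 59698 bp in epithelium and 311589 and 341505 bp in fiber. This is 4.32% ± 1.15 and 28.1% ± 1.82 of the summed window length. The ratio of these shares was 6.50, and it was 3.87 for all genes. Both ratios compare lists of unequal island number and were not computed with equal numbers of islands. The median proteasome gene had none of its window covered in either epithelium library, and 43.7% and 38.7% in the fiber libraries. The medians over all genes were 0, 0, 4.44% and 7.98%. With 10389 islands per library, the median proteasome gene in fiber was covered by 0 for the densest islands and 5.34% for those with the most reads, and it was 10.1% with islands of at least the median density of their library. The median over all genes was 0 in both compartments under these 3 settings. Among islands at proteasome genes, the median length was 3000 bp in each epithelium library and 5400 and 4800 bp in the fiber libraries, where the medians over all islands were 3800, 3000, 5200 and 4000 bp. Counted by part of the gene, 8.12% and 9.53% of exonic bases were covered in epithelium and 38.0% and 42.4% in fiber, against 8.33%, 8.77%, 24.3% and 24.4% for all genes. Intronic bases were covered less in each library, by 1.74% and 3.46% in epithelium and 22.5% and 24.4% in fiber, against 2.86%, 3.04%, 12.6% and 13.1%.

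What did not differ in this way was the number of reads per kb within the islands. Over the genes with an island in a library, the median was 28.1 and 29.0 reads per covered kb in epithelium and 26.4 and 27.4 in fiber, against 28.5, 28.3, 27.9 and 28.2 for all genes. The ratio of fiber to epithelium was 0.942 for proteasome genes and 0.988 for all genes. An island at a proteasome gene ranked near the middle of its own library, its density being above that of 49.1%, 55.7%, 49.2% and 50.6% of all islands at the median. These densities are raw reads, since depth is unknown. They exist only where an island was called, and the medians rest on different sets of 14, 18, 40 and 43 proteasome genes. Divided by the reads that each library has in islands, the ratio was 0.250, and counted over the whole window in place of the covered part it was 1.66. All genes gave 0.262 and 1.63 on these scales, so the direction of the ratio depends on the scale chosen.

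**Figure D2:**
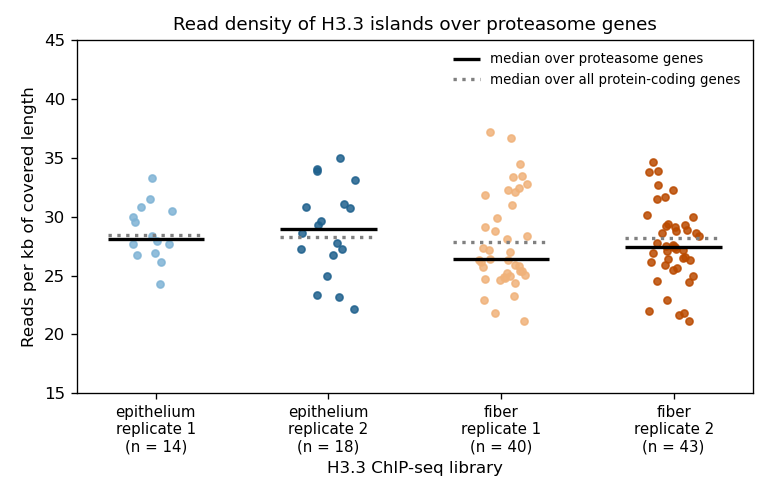
Reads per kb of covered gene window for each proteasome gene with an island (points), by library, with the median over proteasome genes (solid line) and over all protein-coding genes (dotted line). The proteasome medians lie at 28.1, 29.0, 26.4 and 27.4 reads per covered kb, and the points of the 4 libraries overlap.

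Gene by gene, 38 of the 49 proteasome genes (77.6%) were covered more in both fiber libraries than in either epithelium library, each with an exact permutation p of 0.33, where 42.5% of all genes met the same criterion. None was covered more in both epithelium libraries, against 0.769% of all genes. With equal numbers of islands the 38 became 10 (20.4%) for the densest islands, with 1 gene the other way. For those with the most reads it became 17 (34.7%), with 0 the other way. The same counts over all 20807 genes were 3066 (14.7%) and 4132 (19.9%) for fiber and 906 and 603 the other way. An island was called in both fiber libraries at 39 genes (79.6%, against 51.7% of all genes), and in both epithelium libraries at 8 (16.3%, against 22.4%), namely the 8 called in all 4 libraries (against 21.5%). At 16 genes (32.7%) an island was called in both fiber libraries and in neither epithelium library, against 16.4% of all genes, and at 0 in both epithelium libraries alone (0.235%). Without epithelium replicate 2 the count of 16 became 25 (51.0%), and the share of all genes became 25.3%. Leaving out a library removes a condition and cannot lower this count. With equal numbers of islands the 16 became 5 (10.2%) for the densest islands and 7 (14.3%) for those with the most reads. All genes gave 1128 (5.42%) and 1055 (5.07%). No island was called in any library at 4 genes (8.16%), against 35.0% of all genes, and 2, Psma7 and Psmb4, were covered completely in both fiber libraries (4.08%, against 2.78%).

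**Figure D3:**
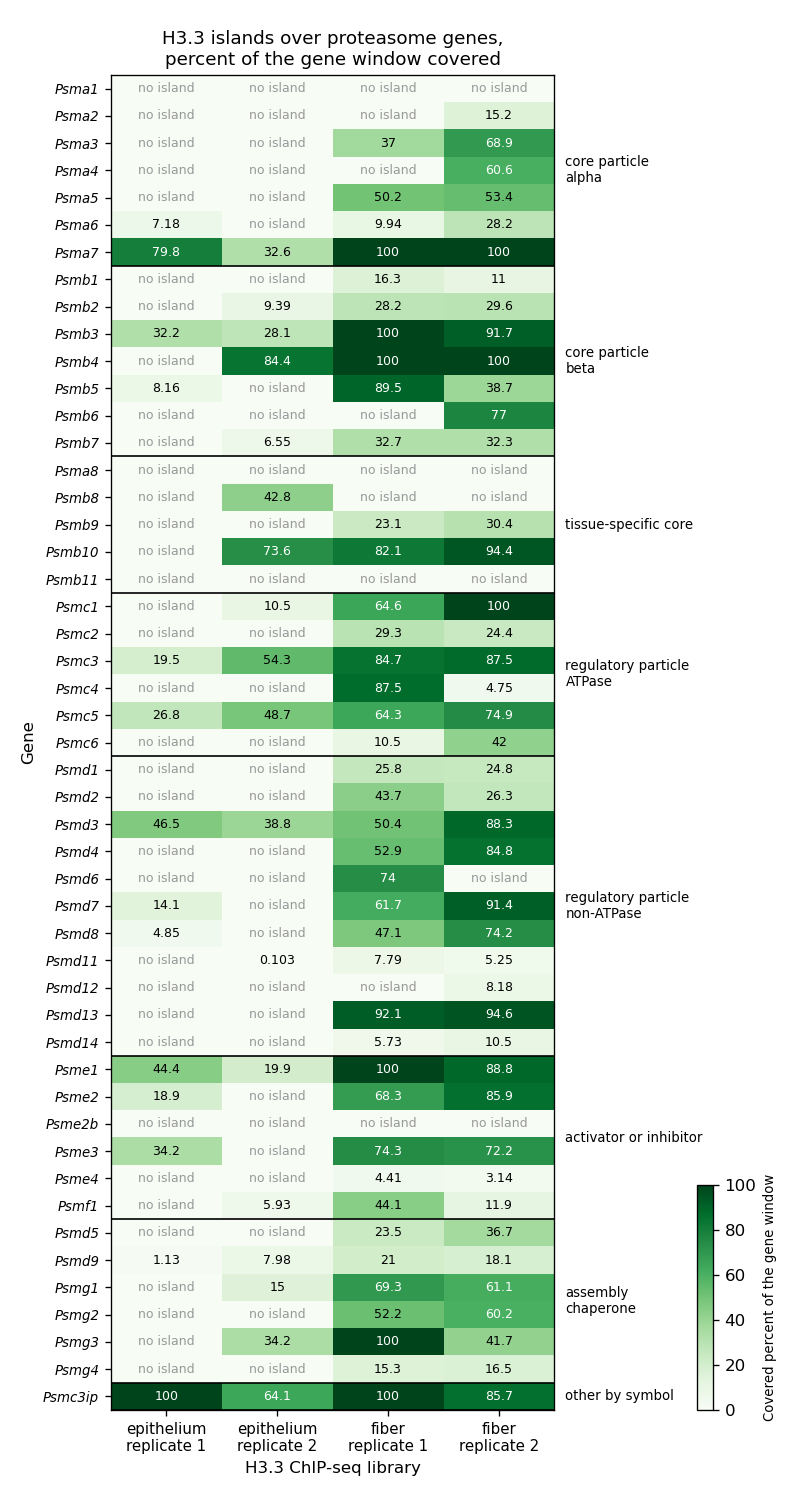
Percent of the gene window covered by H3.3 islands for each of the 49 genes (rows, grouped by role) in the 4 libraries (columns), with the value in each cell. Most epithelium cells hold no island, and 39 genes have islands in both fiber libraries.

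Replicates of a compartment often differed at single genes. Of the 49 genes, 6 had an island in epithelium replicate 1 alone of the epithelium libraries and 10 in replicate 2 alone. In fiber, Psmd6 had islands in replicate 1 alone, and Psma2, Psma4, Psmb6 and Psmd12 in replicate 2 alone. The covered share differed between the fiber replicates by 8.20 percentage points at the median gene and by 82.7 points at most, at Psmc4, which encodes a regulatory particle ATPase. This gene had no island in epithelium, 87.5% coverage in fiber replicate 1 and 4.75% in fiber replicate 2. In epithelium the largest gap was 84.4 points, at Psmb4, a structural beta subunit gene that had no island in replicate 1 and 84.4% coverage in replicate 2.

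The alpha subunits form the outer rings of the core and gate its entry. Islands were present at 2, 1, 4 and 6 of the 7 alpha genes (28.6%, 14.3%, 57.1% and 85.7%). Among all genes these shares were 28.6%, 33.5%, 54.5% and 60.5%. Of the 7, 4 were covered more in both fiber libraries (57.1%, against 42.5% of all genes). Psma7 was covered by 79.8%, 32.6%, 100% and 100%. Psma1 is the constitutive core subunit gene without an island in any library. It lies at chr7:114264606-114276118 on the minus strand. Its upstream sequence, 250 bases at chr7:114276117-114276366 (GRCm38.p6, minus strand, from RefSeq), is shown as that of a subunit gene with no called island, with GC boxes (GGGCGG) and CCAAT boxes on either strand in capitals:
Psma1: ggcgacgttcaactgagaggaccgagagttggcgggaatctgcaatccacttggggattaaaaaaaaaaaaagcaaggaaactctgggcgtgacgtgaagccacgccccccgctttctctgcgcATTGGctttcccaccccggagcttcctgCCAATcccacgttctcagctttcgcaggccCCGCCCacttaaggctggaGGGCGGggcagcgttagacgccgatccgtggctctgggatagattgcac
This stretch holds 4 such boxes, and 58.4% of its bases are G or C.

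The beta subunits form the inner rings. Islands were present at 2, 4, 6 and 7 of the 7 constitutive beta genes. These shares of 28.6%, 57.1%, 85.7% and 100% compare with 28.6%, 33.5%, 54.5% and 60.5% of all genes. Of the 7, 6 were covered more in both fiber libraries (85.7%, against 42.5% of all genes). Psmb5, Psmb6 and Psmb7 encode the catalytic subunits with chymotrypsin-like, caspase-like and trypsin-like activity. Psmb5 was covered by 8.16% in epithelium replicate 1, had no island in replicate 2, and was covered by 89.5% and 38.7% in the fiber libraries. Psmb6 had an island in fiber replicate 2 alone, over 77.0% of its window. Psmb7 was covered by 6.55% in epithelium replicate 2 and by 32.7% and 32.3% in fiber, with no island in epithelium replicate 1. All 3 catalytic genes thus had islands in fiber replicate 2 and none had more than 8.16% coverage in an epithelium library. Psmb3, a structural beta subunit, was covered by 32.2% and 28.1% in epithelium and 100% and 91.7% in fiber, a difference of 65.7 points between compartment means. Psmb1, another structural subunit, had the highest density in fiber of the genes called in both fiber libraries, with 37.2 and 33.9 reads per covered kb over 16.3% and 11.04% of its window.

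Core subunits that replace the constitutive ones in certain tissues had islands at 0, 2, 2 and 2 of 5 genes. These shares of 0, 40%, 40% and 40% compare with 28.6%, 33.5%, 54.5% and 60.5% of all genes. Of the 5, 2, Psmb9 and Psmb10, were covered more in both fiber libraries (40%, against 42.5% of all genes). In fiber this set was therefore not above all genes. Psmb10, an interferon-inducible catalytic subunit of the immunoproteasome, had no island in epithelium replicate 1, 73.6% coverage in replicate 2, and 82.1% and 94.4% in the fiber libraries. Psmb9, another immunoproteasome subunit, had islands in fiber alone, over 23.1% and 30.4% of its window, at 36.7 and 29.3 reads per covered kb. The start of Psmb9 lies within 1 kb of that of Tap1, a peptide transporter gene, and an island there cannot be assigned to either gene. Psmb8, the remaining immunoproteasome subunit (chr17:34197721-34201454), was the one gene with an island in epithelium and none in fiber. That island, in epithelium replicate 2, measured 3000 bp with 70 reads, began 2280 bp downstream of the gene start and covered 42.8% of the window, and its density was above that of 6.92% of the islands of its library. Psma8, the alpha subunit of the testis, and Psmb11, the beta subunit of the thymus, had no island in any library.

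The base of the regulatory particle contains 6 ATPases. All of them had islands in both fiber libraries (100%, against 51.7% of all genes). All were covered more in both fiber libraries than in either epithelium library (100%, against 42.5% of all genes). In epithelium, 2 and 3 of the 6 had islands (33.3% and 50%, against 28.6% and 33.5% of all genes). Psmc1 (chr12:100110154-100123405, plus strand) showed the largest difference of the ATPases. It had no island in epithelium replicate 1 and 10.5% coverage in replicate 2, in an island that begins 9447 bp downstream of the start. In fiber replicate 1, an island of 9400 bp with 285 reads lay over the start, a second one began at the end of the gene, and 64.6% was covered. In fiber replicate 2, a single island of 17600 bp with 506 reads contained the whole gene. The difference between compartment means was 77.1 points. The 250 bases before the RefSeq start of Psmc1, chr12:100109952-100110201 on the plus strand of GRCm38.p6, lie inside the start island of both fiber libraries and in no epithelium island, and are printed for that reason with the single CCAAT box in capitals:
Psmc1: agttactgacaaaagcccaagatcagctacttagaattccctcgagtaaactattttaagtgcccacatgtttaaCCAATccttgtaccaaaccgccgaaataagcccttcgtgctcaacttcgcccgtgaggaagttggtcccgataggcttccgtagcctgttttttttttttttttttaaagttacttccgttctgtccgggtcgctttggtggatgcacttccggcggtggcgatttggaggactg
Here 46.4% of the bases are G or C.

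Psmc3 and Psmc5 were the ATPase genes called in all 4 libraries. Psmc3 was covered by 19.5% and 54.3% in epithelium and by 84.7% and 87.5% in fiber, at 33.5 and 33.8 reads per covered kb in fiber, among the highest densities of the proteasome genes. Psmc6 was at the other end of that order, with 21.8 and 21.6 reads per covered kb over 10.5% and 42.0% of its window in fiber and no island in epithelium.

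The other subunits of the regulatory particle form its lid and complete its base, and they include ubiquitin receptors and a deubiquitinase. Islands were present at 3, 2, 10 and 10 of these 11 genes. These shares of 27.3%, 18.2%, 90.9% and 90.9% lay below all genes in epithelium and above them in fiber (28.6%, 33.5%, 54.5% and 60.5%). Of the 11, 9 were covered more in both fiber libraries (81.8%, against 42.5% of all genes). Psmd13, a lid subunit (chr7:140881968-140898643, plus strand), showed the largest difference of all 49 genes, with no island in epithelium and 92.1% and 94.6% coverage in fiber. In fiber replicate 1, islands of 13200 bp (323 reads) and 4000 bp (111 reads) lay over the gene, and in fiber replicate 2, islands of 10200 bp (246 reads) and 8000 bp (250 reads). Both first islands contained the start, and their densities of 24.5 and 24.1 reads per kb were in the lower part of their libraries. The start of Sirt3, which encodes a mitochondrial deacetylase, lies within 1 kb of that of Psmd13. The RefSeq start of Psmd13 lies 426 bp downstream of the GENCODE one. The 250 bases before the RefSeq start, chr7:140882144-140882393 on the plus strand of GRCm38.p6, lie inside the start island of both fiber libraries and, being downstream of the GENCODE start, inside the gene as defined here. They are shown for the gene with the largest difference. This stretch holds neither a GC box nor a CCAAT box, and has no capitals:
Psmd13: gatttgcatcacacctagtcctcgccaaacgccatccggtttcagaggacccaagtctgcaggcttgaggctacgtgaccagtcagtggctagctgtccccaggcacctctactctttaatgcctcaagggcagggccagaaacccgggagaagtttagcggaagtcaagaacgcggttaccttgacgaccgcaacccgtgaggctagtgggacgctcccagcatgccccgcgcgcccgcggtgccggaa
Of its bases, 60.4% are G or C.

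Psmd7, a lid subunit, was covered by 14.1% in epithelium replicate 1, had no island in replicate 2, and was covered by 61.7% and 91.4% in fiber. Psmd4, a ubiquitin receptor of the regulatory particle, had islands in fiber alone, over 52.9% and 84.8% of its window. The differences of means were 69.5 and 68.8 points. Psmd14, the lid deubiquitinase, had 1 of the lowest densities in fiber, 22.9 and 24.5 reads per covered kb, over 5.73% and 10.5% of a window of 90683 bp. Psmd3, a lid subunit, was the gene of this set with islands in all 4 libraries, over 46.5%, 38.8%, 50.4% and 88.3% of its window.

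Activators that bind the core in place of the regulatory particle, together with the inhibitor Psmf1, had islands at 3, 2, 5 and 5 of 6 genes. These shares of 50%, 33.3%, 83.3% and 83.3% compare with 28.6%, 33.5%, 54.5% and 60.5% of all genes. Of the 6, 5 were covered more in both fiber libraries (83.3%, against 42.5% of all genes). Psme1 and Psme2 encode the partner subunits of an interferon-inducible activator and lie next to each other on chromosome 14. Psme1 was covered by 44.4% and 19.9% in epithelium and by 100% and 88.8% in fiber. Psme2 was covered by 18.9% in epithelium replicate 1, had no island in replicate 2, and was covered by 68.3% and 85.9% in fiber, a difference of means of 67.6 points. In fiber replicate 1 both genes were reached by the same island, chr14:55576401-55588000, so their values there are not independent. Psme3, a nuclear activator, was covered by 34.2%, 0, 74.3% and 72.2%. Psme4, a large activator of the nucleus whose window is the longest of all (110636 bp), had islands in fiber alone, over 4.41% and 3.14%. Psmf1 was covered by 0, 5.93%, 44.1% and 11.9%. Psme2b, a short gene close in sequence to Psme2, had no island in any library. Of its window, 23.6% of 75-base stretches, the length of 1 read, occur more than once in the genome. Whether this bears on the missing island was not tested.

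The assembly chaperones, which join the subunits but leave the finished particle, had islands at 1, 3, 6 and 6 of 6 genes. These shares of 16.7%, 50%, 100% and 100% compare with 28.6%, 33.5%, 54.5% and 60.5% of all genes. All 6 were covered more in both fiber libraries (100%, against 42.5% of all genes). Psmg1, Psmg2 and Psmg3, chaperones of the alpha ring, were covered by 69.3%, 52.2% and 100% in fiber replicate 1 and by 61.1%, 60.2% and 41.7% in fiber replicate 2. In epithelium, Psmg1 had 15.04% and Psmg3 34.2% coverage in replicate 2, and Psmg2 had no island. Psmd5, a chaperone of the regulatory particle base, had islands in fiber alone, at 24.7 and 22.9 reads per covered kb, among the lowest densities. Apart from these, Psmc3ip, the gene that is not part of the proteasome, was covered by 100%, 64.1%, 100% and 85.7% and differed between compartment means by 10.8 points. Without it the difference in the share of genes with an island was 53.1 points.

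The position of the islands along the genes was then followed from the start. In fiber, the share of proteasome genes inside an island was highest 200 bp downstream of the start, with 65.3% and 71.4% of the 49 genes, where all genes reached 38.5% and 44.0%. At 1 kb upstream the proteasome genes were close to all genes, with 34.7% and 38.8% against 32.7% and 35.9%. They were further apart at 5 kb downstream, with 40.8% and 44.9% against 20.8% and 19.6%. In epithelium, 8.16% and 16.3% of proteasome genes were inside an island at the start and 12.2% and 8.16% at 5 kb downstream, against 13.1% and 15.3% and then 6.76% and 6.76% of all genes. Since many of these genes are shorter than 10 kb, the downstream positions can lie beyond the gene end.

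**Figure D4:**
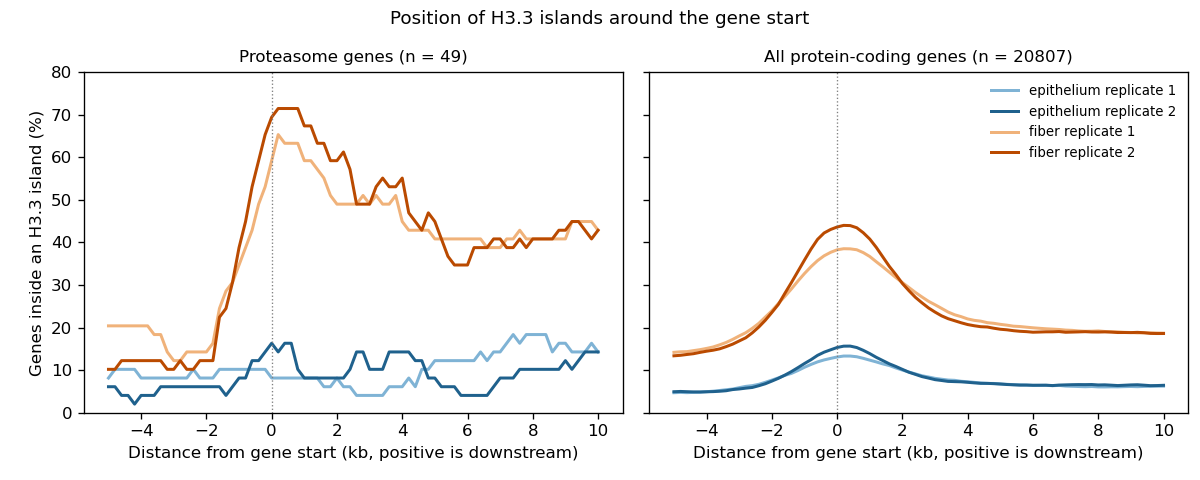
Share of genes (%) inside an H3.3 island at each distance from the annotated gene start (kb, negative values upstream), in steps of 200 bp, for proteasome genes and all protein-coding genes in each library. In the fiber libraries the proteasome genes peak at 65.3% and 71.4% just downstream of the start and stay above all genes at 5 kb downstream.

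Islands that contained a start extended unequally to its sides in fiber. The start was inside an island at 4, 8, 29 and 34 of the proteasome genes. In fiber these islands reached a median of 1353 and 1096 bp upstream and 3863 and 2789 bp downstream of the start, and 23 of 29 and 29 of 34 reached further downstream (79.3% and 85.3%, against 60.7% and 59.8% for all genes). In epithelium 3 of 4 and 3 of 8 did, against 56.7% and 56.8%. At the other end of the genes, the shares were above those of all genes in all 4 libraries. Within 1 kb of the annotated end, islands were found at 11, 12, 27 and 30 of the 49 genes (22.4%, 24.5%, 55.1% and 61.2%), against 13.8%, 14.9%, 30.1% and 31.1% of all genes.

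The windows of 14 proteasome genes also held the start of another protein-coding gene, and at 12 of them that start lay within 1 kb of their own (24.5% of the 49, against 12.9% of all genes). Besides Psmd13 and Psmb9, these were Psma2, Psma4, Psma7, Psmb1, Psmc2, Psmc5, Psme2, Psmd5, Psmg2 and Psmg3. Islands at these starts cannot be divided between the neighbours. In the 35 genes without another start, the count called in both fiber libraries and in neither epithelium library was 9 (25.7%, against 16.4% of all genes, which were not limited in this way), and in the other 14 it was 7 (50%). Repeated sequence was of small extent, with a median of 1.81% of 75-base stretches occurring more than once, under 10% at 44 of the 49 genes, and the highest value at Psmg4 (41.7%).

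Promoter sequences from RefSeq (GRCm38.p6, 250 bases before to 50 bases after the start) matched 41 of the 49 genes by symbol. NFE2L1 and NFE2L2 are transcription factors known to act on proteasome genes through antioxidant response elements, so the core letters of that element, TGACNNNGC, were searched on both strands. They were found at 6 of 41 proteasome promoters (14.6%) and at 15.1% of 15687 promoters of protein-coding genes. The matches are shown 5′ to 3′ on the strand of the match, with the core in capitals and up to 10 flanking bases on each side, so that their letters can be compared:
Psmb5: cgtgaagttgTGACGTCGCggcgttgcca
Psmb6: ctaaagagagTGACGGAGCgctttacgac
Psmc6: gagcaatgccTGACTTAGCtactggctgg
Psmd12: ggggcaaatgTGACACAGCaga
Psmd9: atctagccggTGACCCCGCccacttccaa
Psme4: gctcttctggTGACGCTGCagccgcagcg
They lie at chr14:54618024-54618052 (minus strand, Psmb5), chr11:70525338-70525366 (plus, Psmb6), chr14:45329587-45329615 (minus, Psmc6), chr11:107479278-107479299 (minus, Psmd12), chr5:123228149-123228177 (plus, Psmd9) and chr11:30771758-30771786 (minus, Psme4). The match at Psmd12 lies at the edge of the searched window and is shown shorter. At Psmd9 the RefSeq start lies far downstream of the GENCODE start used for the islands above, so the start island of this gene is not at the promoter searched. A match is a description of letters and not a binding site. CCAAT was found at 34.1% of the proteasome promoters (41.7% of all), the GC box GGGCGG at 53.7% (51.7%) and TATAAA at 9.76% (14.4%), again on both strands. Proteasome promoters had a median G and C content of 58.5% and 19 CpG dinucleotides, against 57.2% and 15 for all.

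The other genes of the pathway, 25 of 27 listed symbols that were found in the annotation, are companions without a proteasome symbol (ubiquitin genes, receptors, shuttle factors, deubiquitinases and regulators). Islands were present at 11, 14, 21 and 23 of the 25. These shares of 44%, 56%, 84% and 92% compare with 28.6%, 33.5%, 54.5% and 60.5% of all genes. Of the 25, 19 were covered more in both fiber libraries (76%, against 42.5% of all genes). Called in all 4 libraries were 11 (44%, against 21.5%). Adrm1, a ubiquitin receptor of the regulatory particle, was covered by 30.7% and 26.5% in epithelium and completely in both fiber libraries, the largest difference of the companions (71.4 points). Nploc4, a cofactor of the segregase VCP, was covered by 3.76%, 9.15%, 86.3% and 67.6%. Nfe2l1, the transcription factor gene named above, was covered by 39.8%, 32.8%, 96.0% and 100%. Pomp, which guides maturation of the core, was covered by 22.2%, 10%, 89.2% and 65.5%. Sem1, a small lid subunit, had islands in fiber replicate 2 alone, over 19.7% of its window. Usp14, a deubiquitinase of the regulatory particle, was the companion gene without an island in any library.

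Other gene families of large complexes served as a comparison. Ribosomal protein genes (75) had islands in the window at 68.0%, 77.3%, 96.0% and 97.3%, and respiratory chain genes (82) at 37.8%, 45.1%, 72.0% and 75.6%. Proteasome genes were therefore below both families in each epithelium library and between them in each fiber library. The differences between compartment means were 24 points for ribosomal protein genes, 32.3 for respiratory chain genes and 52.0 for proteasome genes, and no test of the difference between families was made. This order depends on the measure. The median covered share differed by 48.9 points for ribosomal protein genes, 45.8 for respiratory chain genes and 41.2 for proteasome genes, which is the opposite order. A covered share depends on gene length, and the median lengths of these families were 3368, 7565 and 11763 bp. Ribosomal protein genes already had islands at 68.0% and 77.3% in epithelium, and their median covered share was 100% in both fiber libraries. Why the order differed between the measures was not tested. Called in all 4 libraries were 60% of the ribosomal protein genes, 31.7% of the respiratory chain genes and 16.3% of the proteasome genes, against 21.5% of all genes.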

How the data were processed

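H3.3 ChIP-seq of newborn CD1 lens epithelium (2 libraries) and fiber (2 libraries) was examined. According to the study's methods, the authors mapped 75-nt single-end reads with BWA and called peaks with SICER2. The labels give mm10, and the names of the deposited lists, 1 per library, carry the settings (window 200 bp, gap 600 bp, false discovery rate 0.01). The deposited values are counts of reads per island, not normalized by the authors. Removal of duplicates and use of an input in calling are not given in the sources used here. Whole-genome methylation samples were not analysed here.

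Islands overlapping a gene window (GENCODE vM21 gene body with 1 kb on each side) by at least 1 bp were assigned to the gene, and their counts were divided in proportion to length. Reads per covered kb used only genes with an island. Positions count from 1. Reads outside islands are not in the lists, so no count model was fitted. Single genes were compared with an exact two-sided permutation test over libraries (smallest p = 0.33). Interval assignment was checked against bedtools 2.31.1 (0 windows differed) and tested on simulated data (200 planted islands recovered). Analyses used Python 3.11.15, numpy 2.4.6, pandas 2.3.3 and scipy 1.17.1.

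The members and lists were chosen with earlier results of these data known. Named genes were the 6 with the largest and the 6 with the smallest difference in mean covered share, those without an island or with islands in epithelium alone, the 3 highest and 3 lowest in fiber reads per covered kb, the catalytic and tissue-specific subunits, activators, the inhibitor and Psmc3ip, and of the companions Pomp, Adrm1, Sem1, Nfe2l1 and the 3 with the largest difference. Other genes named in the text (Psma7, Psmb4, Psmc4, Psmc5, Psmd3, Psmg1, Psmg2, Psmg3, Usp14 and those named where replicates or neighbours are described) were chosen after their values were seen. Alternatives changed the number, threshold and overlap of islands, the window, the members, the scale of the reads and the libraries used. Depths are unknown, counting intervals are therefore not given, and 2 libraries per compartment limit the precision.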

Additional observations from a re-analysis of the deposited data

How the results depend on the processing

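No difference between compartments and no count changed direction under the alternatives tried, but the density ratio did. Without 1 library at a time, the compartment difference in genes with an island (52.0 points) ranged from 48.0 to 56.1, that at the start (54.1) from 50 to 58.2, that of the median covered share (41.2) from 38.7 to 43.7, the density ratio (0.942) from 0.924 to 0.961, the genes covered more in both fiber libraries (38) from 38 to 42, and those called in both fiber libraries alone (16) from 17 to 25, the last without epithelium replicate 2. Leaving out a library removes a condition from these 2 counts, so they could only stay or rise. The shares of all genes rose as well, from 42.5% to between 46.0% and 52.9%, and from 16.4% to between 18.3% and 25.3%. With islands of at least the median density of their library, the differences were 41.8, 35.7 and 10.1 points (all genes 22.7, 18.2 and 0), and 22 genes were covered more in fiber (44.9%, against 28.8% of all genes). With 10389 islands per library, the densest gave 13.3, 16.3 and 0 points and a ratio of 1.11. They gave 10 and 5 genes (20.4% and 10.2%, against 14.7% and 5.42% of all genes). Those with the most reads gave 22.4, 13.3 and 5.34 points and a ratio of 1.005. They gave 17 and 7 genes (34.7% and 14.3%, against 19.9% and 5.07% of all genes). The ratio thus passed from below to above 1, with fewer islands kept from fiber by construction. Particle subunits alone gave 35.2 points of median coverage and a ratio of 0.977. Median coverage differed by 36.9 points in the gene body alone, 33.0 with 5 kb on each side and 74.8 in the start window, where 21 genes were covered more in fiber (42.9%, against 25.0%), and mean coverage by 34.5. The ratio was 1.66 per kb of the whole window and 0.250 after division by reads in islands; the cause was not tested. In genes without another start, an alternative chosen after seeing the data, the start difference was 47.1 points and 9 genes were called in both fiber libraries alone. The other alternatives, 11 of 14 for genes with an island, 9 of 13 at the start, 6 of 14 for median coverage, 11 of 16 for the ratio, 9 of 13 and 10 of 14 for the counts, stayed within the replicate spread or 1.5-fold. For the counts these include settings without 1 library, which could not lower them. No paired analysis was possible because the 6 results above come from no test and no label ties a replicate number to a shared batch; for single genes, 2 pairs allow fewer arrangements than the 6 splits used. Depth is unknown, and a gene without an island may hold H3.3 below the calling threshold.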

Other observations

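Proteasome genes outside chromosomes 1 to 19 and pseudogenes were looked at separately. Psmd10, on chromosome X, encodes a chaperone of the regulatory particle base and had no island in any library, where the whole of chromosome X held 11 and 16 islands in the epithelium and 26 and 74 in the fiber libraries. The pseudogenes Psmb5-ps, Psmb6-ps, Psmb6-ps2 and Psmb7-ps2 had none either.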
